A study of Mus musculus with 24 samples.

Results

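The integrated stress response is the pathway by which a cell under stress slows protein synthesis and switches on a repair programme, and 10 of its genes are described here in single erythroid progenitors. They were taken by gene symbol, as 10 of the 49585 gene rows measured: the kinases Eif2ak1, Eif2ak2 and Eif2ak4, the transcription factors Atf4, Atf5 and Ddit3, and the target genes Ppp1r15a, Asns, Trib3 and Chac1. The choice was by symbol and applied no threshold to the values.

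In this pathway a kinase phosphorylates the translation initiation factor eIF2 on its alpha subunit, which lowers translation of most messenger RNAs while that of Atf4 and a few others is spared or raised. Each kinase answers to its own signal: Eif2ak1 encodes HRI, the haem-regulated inhibitor, which is abundant in the red cell lineage and restrains globin synthesis when haem is short. Eif2ak2 encodes PKR, activated by double-stranded RNA, and Eif2ak4 encodes GCN2, activated when amino acids run short. Because kinase activity and Atf4 translation are set after transcription, messenger RNA levels of the kinases and of Atf4 do not measure how active the pathway is. Whether the pathway was active in any cell was not tested here.

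The cells were 24 BFU-E (erythroid burst-forming units, progenitors at an early step of red cell formation) from the livers of C57/Bl6J mouse fetuses at embryonic day 14.5. Red cells had been lysed, cells bearing markers of other lineages, Ter119, Sca-1, CD16/32 or CD41 had been removed with beads, and the rest had been sorted on CD117, CD71 and CD24. They form 1 group, for which the labels name no treatment or altered genotype. No embryo is named for any cell either, so the cells count as 1 sample and no p-value or standard error is given. Libraries were made from polyadenylated RNA by Smart-seq2, which amplifies by PCR without molecular identifiers, and were sequenced without strand information. The names of the 24 cells carry a letter and a number, read here as wells in 3 plate columns of 8 cells each. These plate columns serve below as a technical grouping. The titles of all 24 cells carry the same set name, Set2.

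Total counts ran from 876983 to 2155010 per cell, and 4767 to 7349 genes per cell reached 5 counts, the threshold for calling a gene detected. That threshold corresponded to 2.32 to 5.70 CPM depending on the cell, CPM being counts scaled to the same total in every cell, and the mitochondrially encoded share of counts ran from 2.18% to 4.92%. All 14 erythroid progenitor markers were detected in at least 12 cells, with Kit in 24, Gata1 in 20, Klf1 in 20 and Epor in 18. Most markers of other types were detected in fewer than 12 cells. The exceptions were F2r in 22 cells, Afp in 19, Itga2b, the gene of CD41, in 16, Cst7 in 14 and Mpo in 12. Summed levels were high in single cells. That of 10 myeloid markers, led by Mpo, ran from 0.595 to 9946 CPM with the highest value in cell 1, and Elane and Ms4a3 were detected in 0 cells. The 9 lymphoid markers, led by Ighm, summed to between 0 and 2698 CPM, highest in cell 19. Likewise the 10 megakaryocyte markers, led by F2r, reached 1755 CPM in cell 12, the 10 hepatocyte markers, led by Afp, reached 1361 CPM in cell 10, the 9 macrophage markers, led by Csf1r, reached 462 CPM in cell 1, and the 6 endothelial markers, led by Pecam1, reached 457 CPM in cell 19. Of 10 late erythroid markers, 1 was detected in at least 12 cells. Klf1 was lowest in cells 1, 9, 19 and 23, with log2(CPM + 1) of 1.80, 1.94, 0.856 and 2.14. Their summed myeloid markers stood at 9946, 1064, 277 and 3303 CPM. These cells include those with the highest Eif2ak4 (cell 9), Eif2ak2 (cell 19), and Atf4 and Ppp1r15a (cell 23) described below. Whether they are erythroid progenitors was not tested.

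The promoters of the 4 target genes carry the DNA motifs through which factors of the ATF and C/EBP families are known to act, and those stretches are shown because the 4 genes differed so much in level. The sequences are from RefSeq on GRCm38.p6, read 5′ to 3′ along the gene's own strand, and the capitals mark the motif. In Asns (chr6:7693214-7693243, minus strand), Trib3 (chr2:152344028-152344057, minus strand) and Chac1 (chr2:119351038-119351067, plus strand) it is TGATGNAA, the general form of the C/EBP-ATF response element, in Trib3 and Chac1 on the opposite strand. In Ppp1r15a (chr7:45526262-45526291, minus strand) it is TGACGTCA, the cAMP response element, which reads the same on both strands.
Asns: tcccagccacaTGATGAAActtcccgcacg
Trib3: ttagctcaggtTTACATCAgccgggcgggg
Chac1: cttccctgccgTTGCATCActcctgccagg
Ppp1r15a: cgcctctccggTGACGTCAgcacagcgccg

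Both motifs were searched on both strands in the 300 bases from 250 before to 50 after each start, and all 10 genes matched the promoter table. TGATGNAA occurred in 1304 of 32851 mouse promoters (3.97%) and, among the 10 genes, in Asns, Trib3 and Chac1. TGACGTCA occurred in 588 of 32851 (1.79%) and, among the 10 genes, in Ppp1r15a. The Asns match begins 23 bases before the RefSeq start and the Ppp1r15a match 12 bases before it. In Chac1 the match begins 193 bases before the start, and in Trib3 it lies at base 15 after it. The GENCODE coordinates used below place the starts elsewhere: by them the Asns match lies within the gene's exon and the Trib3 match upstream of the gene. Trib3 and Chac1, which share the motif with Asns, had 0 counts in every cell, whereas Asns had the highest mean of the 10 genes. A match of letters is a description and not a measured binding site.

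Of the 10 genes, 4 were detected in at least 12 cells: Atf4 in 23, Eif2ak1 in 21, Asns in 19 and Eif2ak4 in 15. Eif2ak2 was detected in 10 cells, Ddit3 in 8, Ppp1r15a in 6 and Atf5 in 2, and Trib3 and Chac1 in 0. Over all 21734 protein-coding genes measured, 26.1% were detected in at least 12 cells, and 46.7% had 0 counts in every cell. A single cell held between 1 and 7 of the 10 genes, with a median of 4.5.

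**Figure D1:**
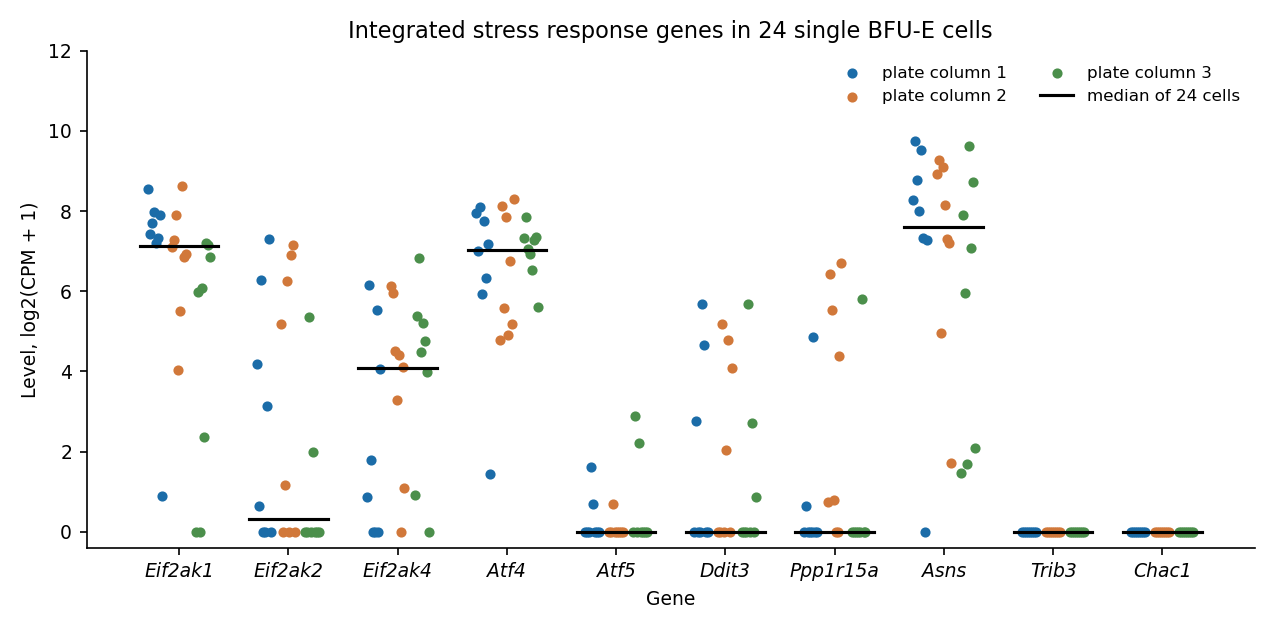
Level of each of the 10 genes in each of 24 cells, as log2(CPM + 1) on the vertical axis, with 1 point per cell coloured by plate column and a black bar at the median. Eif2ak1, Atf4 and Asns have most cells well above 0, Ddit3 and Ppp1r15a are raised in a minority of cells, and Trib3 and Chac1 lie at 0 throughout.

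Eif2ak1 (ENSMUSG00000029613, GRCm38 chromosome 5, 143817788 to 143904251, plus strand) was the leading kinase. Its level was 0 CPM in the lowest cells, 139 CPM at the median and 391 CPM in the highest, cell 17, with a mean of 138 ± 108 CPM (SD over 24 cells, as throughout). It reached detection in 21 of 24 cells, or 87.5%, for which the 95% interval (exact binomial) was 67.6 to 97.3. The undetected cells were 3 and 9, each at 0 counts, and 22, at 1 count. Most other cells lay between 44.7 CPM in cell 14 and 252 CPM in cell 10, with cells 15 and 11 lower at 4.16 and 15.3 CPM and cells 1 and 17 higher at 373 and 391 CPM. The 8 cells of plate columns 1, 2 and 3 had medians of 189, 129 and 64.7 CPM. Column 2 overlapped both others, but columns 1 and 3 overlapped only through cell 22. The highest cell of column 3 was cell 18 at 145.2 CPM. Apart from cell 22, the lowest cell of column 1 was cell 13 at 146.2 CPM. The part of plate column in this difference was not tested. Aimp2, a scaffold protein of the tRNA synthetase complex, lies on the opposite strand and shares 487 exon bases with Eif2ak1, and reads there cannot be assigned without strand. Aimp2 averaged 109 CPM, and its rank correlation with Eif2ak1 across cells was -0.15.

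Eif2ak4 (ENSMUSG00000005102, chromosome 2, 118388618 to 118475234, plus strand) was found in 15 of 24 cells (62.5%, interval 40.6 to 81.2). It ran from 0 CPM through a median of 16.03 CPM to 113 CPM in cell 9, with a mean of 24.4 ± 29.3 CPM. The cell with the most Eif2ak4 was therefore a cell without an Eif2ak1 count: cell 9 held 159 counts of Eif2ak4 and 56 of Eif2ak2.

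Eif2ak2 (ENSMUSG00000024079, chromosome 17, 78852564 to 78882573, minus strand) was found in 10 of 24 cells (41.7%, interval 22.1 to 63.4). It had 0 counts in 12 cells, a median of 0.288 CPM over all 24 and 158 CPM in the highest, cell 19, and its mean was 28.2 ± 48.9 CPM. Where it was detected its median was 57.8 CPM, so most of its level came from few cells: 5 cells, numbers 7, 11, 17, 19 and 20, held between 75.8 and 158 CPM.

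Compared per kilobase of exon, which allows for gene length, HRI transcripts exceeded those of every other kinase in most cells. With Eif2ak3, which encodes the endoplasmic reticulum kinase PERK and was detected in 8 cells, added from the list of kinase regulators, Eif2ak1 was the highest of the 4 kinases in 18 cells. Eif2ak4 was the highest in cells 9, 15 and 22, Eif2ak2 in cells 11 and 20, Eif2ak3 in 0, and cell 3 held no detected kinase. Of the summed kinase level over all cells, Eif2ak1 made up 69.5%, Eif2ak2 15.8%, Eif2ak4 9.39% and Eif2ak3 5.30%. The number of kinases detected in a cell was 1 in 4 cells, 2 in 9, 3 in 8 and 4 in 2, the last being cells 11 and 16.

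**Figure D2:**
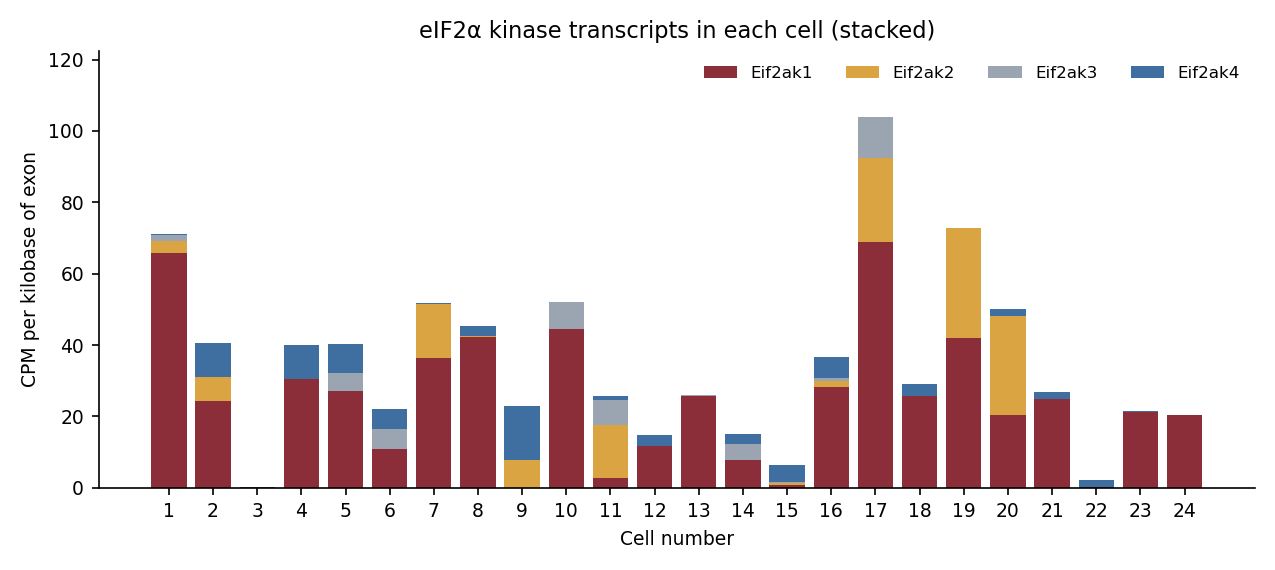
Stacked bars for each of 24 cells (horizontal axis, cell number) with the CPM per kilobase of exon of Eif2ak1, Eif2ak2, Eif2ak3 and Eif2ak4. Eif2ak1 takes up most of the bar in most cells, and cells 9, 11, 15, 20 and 22 are led by another kinase.

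Atf4 (ENSMUSG00000042406, chromosome 15, 80255184 to 80257541, plus strand), the transcription factor at the centre of the response, was the gene found in the most cells, 23 of 24 (95.8%, interval 78.9 to 99.9). It ran from 1.74 CPM in cell 22, which held 2 counts, through a median of 130 CPM to 317 CPM in cell 23, with a mean of 138 ± 90.6 CPM. Apart from cell 22, the lowest cells were 2 and 14, at 26.3 and 29.0 CPM. The plate columns had medians of 136, 77.0 and 143 CPM. Cell 22 thus had 2 counts of Atf4 and 1 of Eif2ak1, yet 176 counts of Asns, at a total of 1149972 counts.

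Ddit3 (ENSMUSG00000025408, chromosome 10, 127290774 to 127296288, plus strand) encodes CHOP, a transcription factor associated with cell death after prolonged stress. It was detected in 8 of 24 cells (33.3%, interval 15.6 to 55.3), with a median of 0 CPM, a highest value of 50.1 CPM in cell 12 and a mean of 9.07 ± 16.03 CPM. The 8 cells were 4, 8, 12, 13, 16, 17, 18 and 23, with 10, 57, 68, 81, 47, 41, 12 and 14 counts. The remaining 16 cells held at most 4 counts, so the gene was either present at 10 counts or more or close to absent in the library. Mars, the methionyl tRNA synthetase gene on the opposite strand, shares 68 exon bases with Ddit3 and was in 21 cells at 170 CPM, and its rank correlation with Ddit3 was 0.01.

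Atf5 (ENSMUSG00000038539, chromosome 7, 44812256 to 44816658, minus strand), a factor related to Atf4 and linked to mitochondrial stress, reached 5 counts in 2 of 24 cells (8.33%, interval 1.03 to 27.0). It had 13 counts in cell 6, which was its highest level at 6.34 CPM, and 5 counts in cell 12, of 23 counts in all cells together. Its exons share 82 bases with Nup62, a nuclear pore gene on the opposite strand that averaged 374 CPM and was detected in 24 cells. The rank correlation of Atf5 with Nup62 was 0.49, and whether its few reads came from Nup62 was not tested.

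Among the target genes, Asns alone was widely expressed. Asns (ENSMUSG00000029752, chromosome 6, 7675169 to 7693254, minus strand) encodes asparagine synthetase. It was detected in 19 of 24 cells (79.2%, interval 57.8 to 92.9) and ran from 0 CPM in cell 19 through a median of 198 CPM to 864 CPM in cell 4, with a mean of 284 ± 268 CPM. The 5 cells below detection, numbers 3, 12, 19, 23 and 24, held 2, 3, 0, 2 and 4 counts, at most 3.25 CPM. The next cells were 8 and 9 at 30.4 and 61.2 CPM, and the other 17 held 134 CPM or more. The medians of plate columns 1, 2 and 3 were 282, 221 and 97.7 CPM.

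Ppp1r15a (ENSMUSG00000040435, chromosome 7, 45522916 to 45526268, minus strand) encodes the stress-induced subunit of the phosphatase that removes the phosphate from eIF2, closing the loop. It was detected in 6 of 24 cells (25%, interval 9.77 to 46.7), with a median of 0 CPM, a highest value of 103 CPM in cell 23 and a mean of 14.1 ± 28.9 CPM, or 10.2 ± 22.4 without cell 23. The 6 cells were 5, 8, 16, 18, 20 and 23, with 164, 73, 54, 118, 33 and 90 counts, and every other cell held 0 or 1 count. Ppp1r15b, the constitutive counterpart, was detected in 18 cells.

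Trib3 (ENSMUSG00000032715, chromosome 2, 152337422 to 152344032, minus strand), a pseudokinase that feeds back on Atf4 and Ddit3, had 0 counts in every cell. Chac1 (ENSMUSG00000027313, chromosome 2, 119351229 to 119354381, plus strand), an enzyme that degrades glutathione, also had 0 counts in every cell. With 0 of 24 cells, the exact binomial 95% interval reaches 14.2% of cells, which limits cells with reads and not cells expressing the gene, and in the shallowest cell 0 counts allow 3.42 CPM. Both are among the 46.7% of protein-coding genes without a count.

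Ranked by mean CPM per kilobase of exon, the order was Asns at 104 ± 98.0, Atf4 at 58.6 ± 38.4, Eif2ak1 at 24.3 ± 19.1, Eif2ak2 at 5.51 ± 9.57, Ddit3 at 5.29 ± 9.36, Ppp1r15a at 4.79 ± 9.84, Eif2ak4 at 3.28 ± 3.94 and Atf5 at 0.279. Atf4 was above Eif2ak1 in 18 of 24 cells, with a difference of 34.3 ± 40.8, and Eif2ak1 was above Eif2ak2 in 20, with a difference of 18.8 ± 18.5. Asns exceeded Atf4 in 15 cells and fell below it in 9, and the difference of 45.2 ± 97.7 was smaller than its own spread. The 4 genes from Eif2ak2 to Eif2ak4 could not be ordered: Eif2ak2 and Ddit3 were each the higher in 9 cells, and Eif2ak4 was above Ppp1r15a in 13 cells although its mean was lower. By the length of the principal transcript in place of all exons, an alternative added after the data were seen, Ddit3 moved above Eif2ak2.

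Across cells, Eif2ak1 and Atf4 levels were nearly unrelated. Spearman's rho was 0.14 over 24 cells and Pearson's r on log2(CPM + 1) was 0.27. Both are descriptions of cells that share a set name and differ in depth. Within the plate columns rho was 0.38, 0.10 and 0.02, and leaving out any cell kept it between 0.04 and 0.20. Pearson's r rested on few cells: it was 0.51 without cells 3 and 9, which were farthest from the median in Eif2ak1, and -0.03 without cells 2 and 22, which were farthest in Atf4. Both genes were detected together in 21 cells and Atf4 alone in 2. Neither followed depth closely, with rho to total counts of 0.23 for Eif2ak1 and 0.07 for Atf4.

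**Figure D3:**
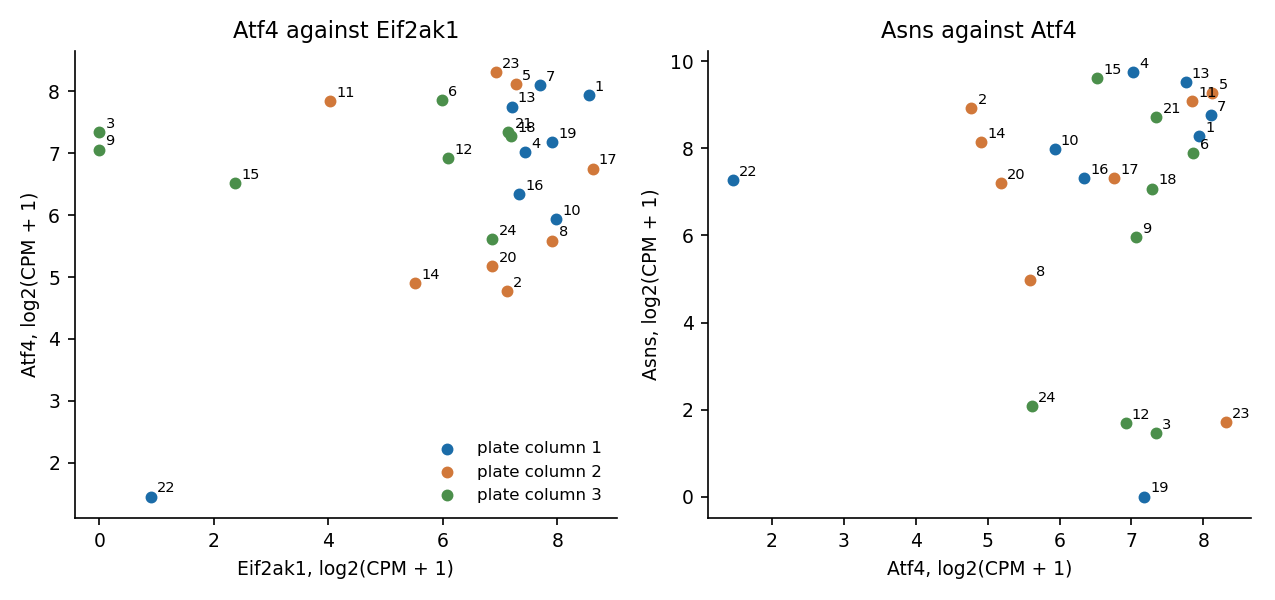
Atf4 against Eif2ak1 (left) and Asns against Atf4 (right) in 24 cells, both axes as log2(CPM + 1), with 1 numbered point per cell coloured by plate column. Points spread without a clear slope in either panel, with rho of 0.14 in both, and cell 22 stands apart at low Atf4.

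Atf4 and its target Asns were related no more closely, with rho of 0.14 over 24 cells, r of -0.03 and column values of 0.45, -0.07 and 0.17. They were detected together in 18 cells, Atf4 alone in 5 and Asns alone in 1. Of the cells without Asns, cell 23 held the most Atf4 of all cells, at 317 CPM. Atf4 also showed rho of -0.11 with Ddit3, 0.10 with Ppp1r15a, -0.08 with Eif2ak2 and -0.14 with Eif2ak4.

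Eif2ak1 had rho of 0.28 with Eif2ak2 and -0.30 with Eif2ak4. The first changed sign between plate columns, with 0.49, 0.02 and -0.59. The second was -0.39, 0.07 and -0.34 by column, and -0.49 once depth and column had been removed from the ranks. Eif2ak1 also showed rho of 0.26 with Ddit3, 0.15 with Ppp1r15a and 0.14 with Asns, and all 3 changed sign between columns. By column the values were -0.55, 0.55 and 0.58 for Ddit3, -0.26, 0.07 and 0.58 for Ppp1r15a, and -0.02, -0.19 and 0.25 for Asns. Once depth and column had been removed from the ranks, they were 0.27 for Ddit3, -0.03 for Ppp1r15a and -0.30 for Asns.

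Over the 21 pairs of the 7 genes detected in at least 6 cells, the median rho was 0.05 and the range -0.30 to 0.41. Of these pairs 14 were above 0 and 7 below. The sign of the median was not kept: it was -0.05 once depth and column had been removed from the ranks. In plate columns 1, 2 and 3 it was 0.02, -0.05 and 0.08. The highest pair was Eif2ak4 with Ppp1r15a at 0.41, with column values of 0.75, 0.10 and 0.08. That pair had 0.18 once every cell was thinned to the same depth. Eif2ak4 itself followed total counts, with rho of 0.53. Ddit3 and Ppp1r15a, both late members of the response, were detected together in cells 8, 16, 18 and 23, Ddit3 alone in 4 cells, Ppp1r15a alone in 2 and neither in 14, and their rho was 0.22.

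For scale, the same rho was computed for 5961 other genes detected in at least 12 cells. With Eif2ak1, 2.92% of them reached rho of at least 0.4 and 2.84% reached -0.4 or less, with a median of 0.00. With Atf4, 1.69% reached at least 0.4 and 2.48% reached -0.4 or less, with a median of -0.01. The other members in at least 12 cells reached neither bound, with Eif2ak1 or with Atf4.

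**Figure D4:**
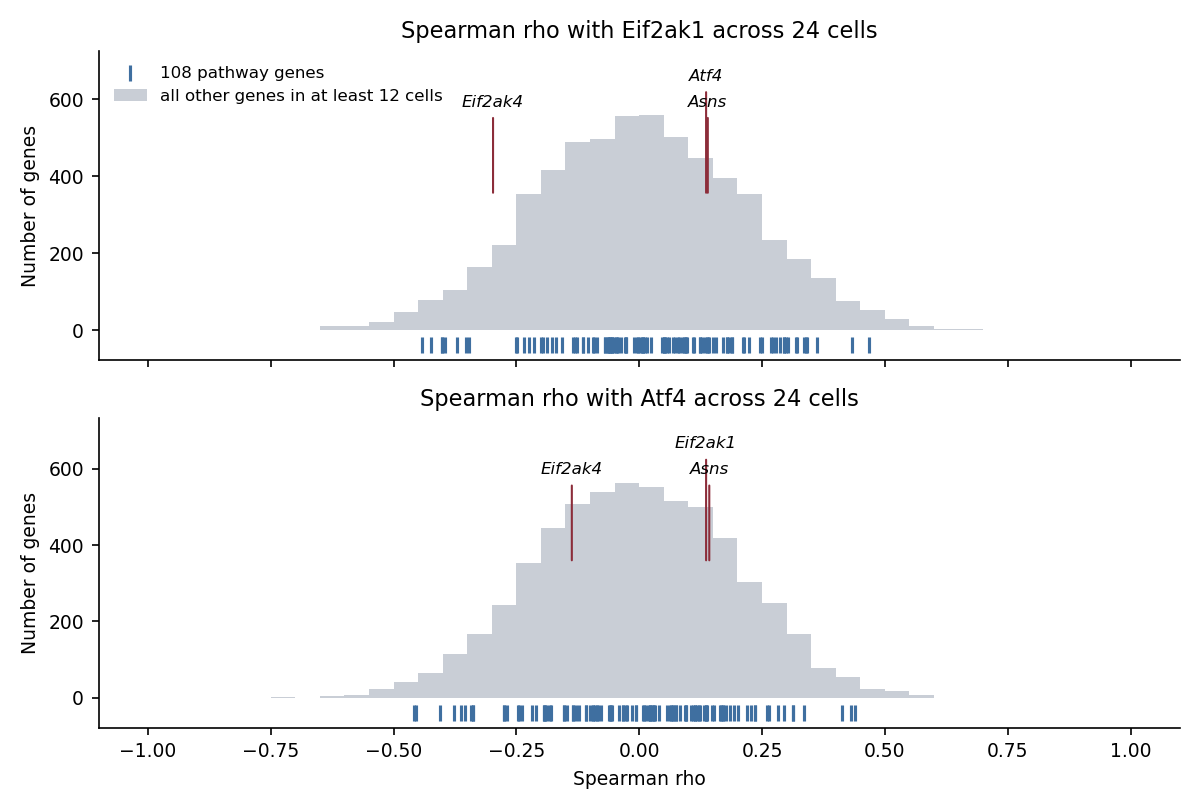
Histograms of Spearman's rho across 24 cells between Eif2ak1 (top) or Atf4 (bottom) and each other gene detected in at least 12 cells, with the number of genes on the vertical axis, ticks for 108 genes of the pathway lists and labels for the members. The members lie inside the bulk of both distributions, and the ticks of the pathway genes spread around 0 on both sides.

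A wider set of 10 lists around the pathway held 150 measured genes, of which 108 were detected in at least 12 cells. Over all protein-coding genes that share was 26.1%, the background for each list below. With Eif2ak1, 2 of the 108 reached rho of at least 0.4 and 4 reached -0.4 or less, with a median of 0.02. With Atf4, 3 reached each bound, with a median of 0.02. These shares are near those over all genes above and are no result about the pathway.

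The eIF2 core list, of translation factors and the phosphatase subunits that act on eIF2, had 17 of 17 genes detected in at least 12 cells. Ppp1ca, a catalytic phosphatase subunit, stood at 360 ± 108 CPM per kilobase, Eif2s1, the alpha subunit that is phosphorylated, at 113 ± 43.5 and Eif2b1, part of the exchange factor that recharges eIF2, at 111 ± 69.8. Eif2s1 had the lowest rho of the list with Atf4, -0.45, and the exchange factor subunit Eif2b4 the highest, 0.41. With Eif2ak1 the range was from -0.39 for Ppp1cb to 0.32 for Ppp1cc, both phosphatase subunits.

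Among 16 regulators of the kinases, 14 passed detection in at least 12 cells, and the highest were the chaperones Hsp90ab1 at 1551 ± 213, Hspa8 at 733 ± 309 and Hsp90aa1 at 565 ± 174 CPM per kilobase. HSP90 and its partners are known to hold HRI in a form that can be activated. Dele1 and Oma1, which carry mitochondrial stress to HRI, were detected in 18 and 16 cells. Dele1 had the lowest rho with Atf4, -0.41, and Hspa8 the highest, 0.15. With Eif2ak1 the lowest was Tarbp2, an inhibitor of PKR, at -0.44 and the highest Dnajc3, an inhibitor of PKR and PERK, at 0.32.

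Of 18 partner transcription factors 6 were in at least 12 cells, beside 26.1% of all protein-coding genes. Nfe2l2, the regulator of antioxidant genes, led at 37.9 ± 29.7 CPM per kilobase and had the lowest rho of the list with Atf4, -0.46, and with Eif2ak1, -0.13. Batf followed at 23.6 ± 26.5, with the highest rho to Atf4 of 0.31, and Cebpb at 19.9 ± 42.6 in 8 cells. The coactivator Crebbp had the highest rho with Eif2ak1, 0.30. Atf3, which acts between Atf4 and Ddit3 in many cells, was detected in 0 cells, as were Batf3, Jdp2 and Fos.

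Genes for serine, proline and asparagine synthesis, many of them known Atf4 targets, were detected in at least 12 cells in 9 of 14 cases. Phgdh, the first enzyme of serine synthesis, stood at 255 ± 82.5, Shmt2, its mitochondrial partner in one-carbon supply, at 143 ± 56.4 and Psat1 at 94.2 ± 40.6 CPM per kilobase, each in 24 cells. All 3 were thus present in the 5 cells where Asns was not detected. Their rho with Atf4 was 0.06, 0.06 and 0.12, and the highest of the list was 0.31 for Mthfd1l, which also had the lowest rho with Eif2ak1, -0.37. Shmt2 had the highest rho with Eif2ak1, 0.15.

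Of 11 amino acid transporters, 7 passed detection in at least 12 cells, with Slc3a2 at 62.5 ± 38.9, Slc1a5 at 45.0 ± 32.2 and Slc7a6 at 24.0 ± 20.1 CPM per kilobase the highest. Slc1a5, a glutamine carrier, had the highest rho with Atf4, 0.43, and Slc38a2 the lowest, -0.28. Slc38a1 had the highest with Eif2ak1, 0.43, and Slc7a1 the lowest, -0.25. Slc7a11, the cystine carrier and a known Atf4 target, was detected in 0 cells, as were Slc7a3 and Slc6a9.

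The tRNA synthetase list was complete, with 13 of 13 measured genes in at least 12 cells, led by Gars at 119 ± 62.6, Nars at 94.3 ± 39.8 and Wars at 74.0 ± 45.6 CPM per kilobase. The rank correlation with Atf4 ran from -0.34 for Tars to 0.24 for Yars, and with Eif2ak1 from -0.35 for Yars to 0.47 for Iars.

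Of 17 genes of feedback and death, 6 passed detection in at least 12 cells, again beside 26.1% of all protein-coding genes. The translation repressor Eif4ebp1 stood at 98.3 ± 54.5, the autophagy receptor Sqstm1 at 62.4 ± 44.7 and Herpud1, which acts in protein disposal, at 59.7 ± 57.8 CPM per kilobase. Herpud1 had the lowest rho with Atf4, -0.36, and the highest with Eif2ak1, 0.34, while Atg5 had the highest with Atf4, 0.22, and Sqstm1 the lowest with Eif2ak1, -0.40. The secreted stress signals Gdf15 and Fgf21 were detected in 0 cells, as were Vldlr and Tnfrsf10b.

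The unfolded protein response of the endoplasmic reticulum had 14 of 18 genes in at least 12 cells, led by Pdia3 at 220 ± 103, Hspa5 at 165 ± 83.5 and Calr at 112 ± 52.2 CPM per kilobase. Hspa5, the main chaperone of that compartment, had the highest rho of the list with Atf4, 0.44, and Manf the lowest, -0.19. With Eif2ak1, Sdf2l1 was highest at 0.34 and Hsp90b1 lowest at -0.42.

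The mitochondrial counterpart had 11 of 11 genes in at least 12 cells, led by the chaperonins Hspe1 at 430 ± 142 and Hspd1 at 389 ± 162 and by Hspa9 at 206 ± 82.0 CPM per kilobase. The rank correlation with Atf4 ran from -0.27 for the protease Htra2 to 0.33 for the protease Clpp, and with Eif2ak1 from -0.19 for Lonp1 to 0.36 for Dnaja3.

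Genes of haem synthesis and sensing, the supply side of the signal that HRI reads, were detected in at least 12 cells in 11 of 15 cases. Alad stood at 171 ± 120 and Urod at 129 ± 72.9 CPM per kilobase, both enzymes of the haem pathway, while Alas2 of the same pathway was detected in 2 cells. Of the haem-degrading enzymes, Hmox1 was detected in 0 cells and Hmox2 in 24. With Eif2ak1, Urod had the lowest rho, -0.40, and Alad the highest, 0.19. With Atf4, Uros was highest at 0.26.

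Stress of cell isolation can itself raise immediate early genes and Atf3, so 15 such genes were counted. Of these, 3 were in at least 12 cells, beside 26.1% of all protein-coding genes. Dnajb1 stood at 40.2 ± 23.5 CPM per kilobase in 22 cells, Ier2 at 32.6 ± 24.4 in 19 and Btg2 at 8.71 ± 22.3 in 4, while Fos, Fosb, Atf3, Hspa1a and Hspa1b were detected in 0 cells. The rank correlation with Atf4 was -0.36 for Dnajb1 and 0.01 for Junb, the extremes of the list, and with Eif2ak1 it ran from -0.23 for Ier2 to -0.06 for Junb. The summed level of the list had rho of -0.33 with Atf4, -0.03 with Eif2ak1 and -0.15 with Asns. The part of isolation in the levels above was not tested.

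The genes most like Eif2ak1 by rho across 24 cells were Gmpr2 at 0.73, Mrgbp at 0.70, Ctdsp1 at 0.67, Itsn2 at 0.65 and Gtse1 at 0.60, and the most opposed were Slc35b1 at -0.73, Cep70 and Bcs1l at -0.65, and Nubpl and Thap12 at -0.64. Mrgbp had column values of 0.69, 0.61 and 0.96, whereas Slc35b1 had -0.07, -0.52 and -0.49. For Atf4 the most alike were Prpf38b at 0.60, Arl6ip1 at 0.58, and Ercc2, Ascc1 and Cdc45 at 0.57, and the most opposed were Hibadh at -0.72, Taf6 at -0.70, Pole3 at -0.64, Nedd8 at -0.63 and Pbrm1 at -0.61. Nedd8, a small protein tag detected in 24 cells, had column values of -0.76, -0.64 and -0.93. Cdc45 fell from r of 0.46 to 0.15 without cells 2 and 22. These are the ends of a ranking over 5961 genes in 24 cells, and neither set holds a gene of the 10 pathway lists.

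Asns had far more company than its regulators, a pattern singled out after its values were seen. Of the 5961 genes, 9.95% reached rho of at least 0.4 with Asns and 4.58% reached -0.4 or less. Of the 108 pathway genes, 22 reached at least 0.4 and 0 reached -0.4 or less, with a median of 0.18 against 0.07 over all genes. The mitochondrial protein list held 7 of these, with a median of 0.50, among them Afg3l2 at 0.64, Hspd1 at 0.62 and Hspa9 at 0.61. The haem list held 4, among them Cpox at 0.77 and Alad at 0.59, and the endoplasmic reticulum list held 4, among them Hspa5 at 0.52 and Canx at 0.51. Among the carriers Slc7a5, which imports large neutral amino acids, was at 0.59.

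The gene most like Asns was Ncl, which encodes the ribosome assembly factor nucleolin, at 0.81 with column values of 0.79, 0.79 and 0.90 and r of 0.69 without the 2 cells farthest from the Asns median. Mia2 and Cpox followed at 0.77, and Tomm5 and Mt1 at 0.76. The most opposed were Atp6v0d1 at -0.81, Cd48 at -0.78, Rcn2 at -0.77, and Laptm5 and Limd2 at -0.75. Cd48 and Laptm5 are membrane proteins of white blood cells and their progenitors.

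Several properties of the cells moved with Asns. Its rho was -0.72 with the mitochondrially encoded share of counts, 0.48 with total counts and 0.40 with the number of genes detected. It was 0.65 with Klf1, an erythroid transcription factor, 0.37 with Epor, 0.19 with Gata1 and 0.06 with Kit, but -0.25 with Nfe2, -0.24 with Car1 and -0.27 with Gata2, and 0.0026 with the summed level of the 14 erythroid progenitor markers. With the summed myeloid markers it was -0.68, with the megakaryocyte markers -0.34 and with the hepatocyte markers -0.21. Of the myeloid list 2 of 10 genes were detected in at least 12 cells. The part of depth, mitochondrial share and cell identity in the relations of Asns was not tested. Atf4 had rho of 0.07 with total counts, -0.11 with the mitochondrial share, 0.27 with Klf1 and -0.24 with the megakaryocyte markers. Eif2ak1 had 0.23 with total counts and -0.17 with the mitochondrial share. Its rho was 0.43 with the lymphoid, 0.36 with the hepatocyte, -0.25 with the myeloid and -0.38 with the late erythroid markers. Pearson's r for the same 4 sums was -0.035, 0.17, -0.19 and -0.093. The lymphoid sum had a median of 0 CPM, with 0 of its 9 genes detected in at least 12 cells.

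**Figure D5:**
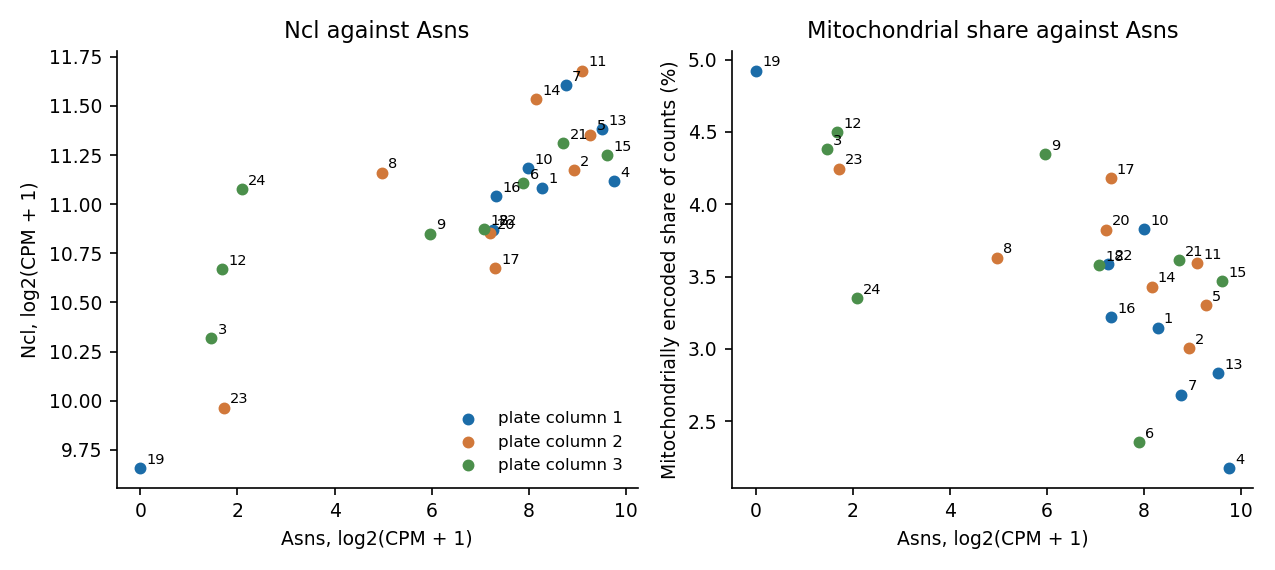
Ncl as log2(CPM + 1) (left) and the mitochondrially encoded share of counts in percent (right) against Asns as log2(CPM + 1) in 24 cells, with 1 numbered point per cell coloured by plate column. Ncl rises with Asns (rho 0.81) and the mitochondrial share falls (rho -0.72), and cells 3, 12, 19, 23 and 24 form the low end of Asns.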

How the data were processed

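Raw read counts per gene for 24 cells were used as the authors deposited them, and no cell was left out. Per the submitters' processing notes, STAR 2.4 and featureCounts were used with the build GRCm38. Counting options and cell filters were not stated in these sources. Symbols, coordinates and exon lengths came from GENCODE M21 on GRCm38, which named 49326 of 49585 rows, and the 259 unmatched rows held 0.0295% of counts. Promoters came from RefSeq.

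Computed here were CPM over all rows of a cell, CPM per kilobase of merged exons, detection at 5 counts, and Spearman's rho and Pearson's r on log2(CPM + 1) across cells, without p-values. Exact binomial intervals and the limit of 3 counts behind a 0 cover counting error only, since PCR copies are not independent molecules and cells of 1 sample share their source. An interval says nothing of other embryos. Member levels were set beside plate column, depth and mitochondrial share.

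The 10 genes, the lists and the thresholds were chosen with earlier results of these data known. The naming rule took the 3 highest genes per kilobase of each list, its extremes of rho with Atf4 and Eif2ak1 among genes in at least 12 cells, and the 5 genes at each end of the ranking. A few genes this rule would name are left out of the text. Other genes were named after their values were seen, and so were those ranked by Asns. Gcn1 and Mars1 were matched under their older symbols. Alternatives were other scalings (edgeR 4.0.16 TMM, DESeq2 1.42.0 size factors over 1910 genes above 0 in every cell, totals without ribosomal RNA and mitochondrial rows), thinning to 876983 counts, other detection thresholds and pseudocounts, plate columns alone, depth and column removed from ranks, and leaving out each cell. Statistics were checked on simulated data in Python 3.11.15 with numpy 2.4.6, pandas 2.3.3 and scipy 1.17.1.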

Additional observations from a re-analysis of the deposited data

How the results depend on the processing

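The mean levels kept within 1 SD of their value under every scaling, thinning and plate column tried, 56 of 56 comparisons, and 4 of the 10 genes were detected in at least 12 cells under each detection setting except a threshold of 1 count, which gave 5 with Eif2ak2 added. The rho of 0.14 between Eif2ak1 and Atf4 moved by more than the tolerance of 0.1 in plate column 1 alone (0.38), in plate column 3 alone (0.024) and as Pearson's r (0.27), and stayed above 0 in these. The pairs followed were those of Eif2ak1 or Atf4 among the 7 genes detected in at least 6 cells, and Eif2ak4 with Ppp1r15a. Under settings that kept every cell or split by plate column, 51 of 120 of their values of rho, or of r in the Pearson settings, moved by more than 0.1. Of the values of rho that left out a cell, 5 of 288 did. Removing depth and plate column from the ranks raised the percent of genes at 0.4 or beyond with Atf4 to 6.41, and the cause was not tested. Atf5 was detected in 5 cells at 1 count and in 0 at 20 counts, and Ddit3 in 5 cells at 20 counts.

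No paired analysis was possible because there is 1 group. With 24 cells from an unknown number of embryos, 8 per plate column, rho within a column rests on few points. Depth limits what a 0 means: 3 counts equal 1.39 to 3.42 CPM. Fewer molecules in a cell and a lost transcript cannot be told apart.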
